A study of Drosophila melanogaster with 6 samples.

Results

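The genes described here are DptA and DptB, which encode the diptericins, Dro (drosocin), Mtk (metchnikowin), Def (defensin) and edin. They are antimicrobial or infection-induced peptide genes of Drosophila melanogaster outside the cecropin, attacin and drosomycin families. They were picked by symbol: each FlyBase identifier of the deposited table was paired with its symbol in a dm6 annotation, and the 6 matching rows were taken from the 17558 in the table. All libraries came from adult males sampled 12 h after they were injected with the Gram-positive bacterium Micrococcus luteus. In 3 of them the flies overexpressed CR33942, a long noncoding RNA also called NANPI, and the other 3 were controls. The overexpressing flies had the strain label Gal80ts; Tub> NANPI. The control flies had the strain label Gal80ts; Tub-Gal4/P{CaryP}attP40, that is, a temperature-sensitive Gal80 repressor of Gal4, the ubiquitous Tub-Gal4 driver and a chromosome with the attP40 landing site but no CR33942 transgene named. Strain and overexpression differed together, so an effect of the RNA and one of the strain cannot be told apart. Every library came from injected flies, so the values compare 2 infected groups and do not measure induction by infection. The labels do not say whether the replicates were separate pools of flies, so a p-value here reflects the spread among libraries alone, and that spread could be technical. The series title links CR33942 to Toll signalling and to transcription of antibacterial peptides, and the comparison asks how these peptide transcripts differed with it.

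When a fly is infected, its fat body, an organ with liver-like functions, secretes peptides into the haemolymph. Their genes are switched on by NF-kB factors at the end of the Toll and Imd pathways: Dif and Dorsal downstream of Toll, Relish downstream of Imd. Toll responds mainly to fungi and to Gram-positive bacteria with lysine-type peptidoglycan, such as M. luteus, and Imd mainly to bacteria with DAP-type peptidoglycan. Diptericins are glycine-rich peptides that act on Gram-negative bacteria and serve as standard readouts of Imd. Drosocin is a proline-rich peptide with the same main targets. Metchnikowin, also proline-rich, is known for activity against fungi and is induced through either pathway. Defensin is a cysteine-stabilised peptide that acts on Gram-positive bacteria. The gene edin (elevated during infection) encodes a short secreted peptide that is induced by infection.

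Each library held between 17032191 and 19797136 reads on genes, as recovered from the values. CR33942 itself stood at 568 ± 18.8 FPKM (fragments per kilobase of gene, scaled to sequencing depth) in overexpressing libraries and 19.1 ± 0.423 FPKM in control libraries (SD, n = 3 each), as its label says. The groups separated on the first principal component (41.8% of the variance), and on the second overexpressing replicate 2 lay at -17.1, away from replicates 1 and 3 of its group at 8.12 and 6.63. Markers of fat body, haemocytes, gut, accessory gland and testis were all present, and no gene of these 5 lists was at 0 in every library. Yp1 and Yp2, yolk protein genes of females, stayed under 1 FPKM on average in either group. Yp3, the other yolk protein gene listed, did not, at 9.04 FPKM in overexpressing and 32.4 FPKM in control libraries on average. The eggshell genes Cp36, Cp38 and Vm26Aa, also female markers, stood at 2.63, 2.59 and 0.669 FPKM in overexpressing replicate 2, the library set apart on the second component; in the other 5 libraries they were listed at 0, except Cp38 at 0.042 FPKM in control replicate 2. Vm26Ab, another eggshell gene among the female markers, was not confined to overexpressing replicate 2. It stood at 0.155, 0.313 and 0 FPKM in overexpressing replicates 1 to 3, against 0.245, 0.246 and 0.269 FPKM in control replicates 1 to 3. The female marker osk was above 0 in every library, from 0.0546 FPKM in control replicate 2 to 0.191 FPKM in overexpressing replicate 2. The part of these female markers in the results was not tested.

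Def and edin were higher in the overexpressing flies, and the more abundant DptA, DptB, Dro and Mtk did not pass the test. Def was 1.90 times and edin 1.57 times its control level. The ratio of overexpressing to control means was 1.06 for DptA, 0.970 for DptB, 1.04 for Dro and 0.852 for Mtk. Changes were tested with limma on log2(FPKM + 1), two-sided, over the 12326 genes that reached 1 FPKM in 3 or more libraries, with Benjamini-Hochberg adjustment over all of them and a threshold of 0.05. All 6 peptide genes passed that filter, and 2 of the 6 were called higher and 0 lower, where 2.22% of all tested genes were called in either direction (0.844% higher and 1.38% lower). The count was the same with limma voom on the recovered reads, 2 higher and 0 lower, where 3.73% of tested genes were called (1.26% higher and 2.47% lower). Their median log2 change was 0.08, beside 0.002 for all tested genes, with 4 genes above 0 and 2 below. Groups did not overlap for Def, edin and Mtk, 3 of the 6 genes, where 20.7% of tested genes had groups that did not overlap (9.06% higher and 11.7% lower). Among the 75 genes with a mean of at least 1000 FPKM, a range that holds all 6, limma called 5 (6.67%), and 21 (28.0%) had groups that did not overlap. Those shares include the peptide genes themselves, Def and edin among the called and Def, edin and Mtk among the genes without overlap.

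**Figure D1:**
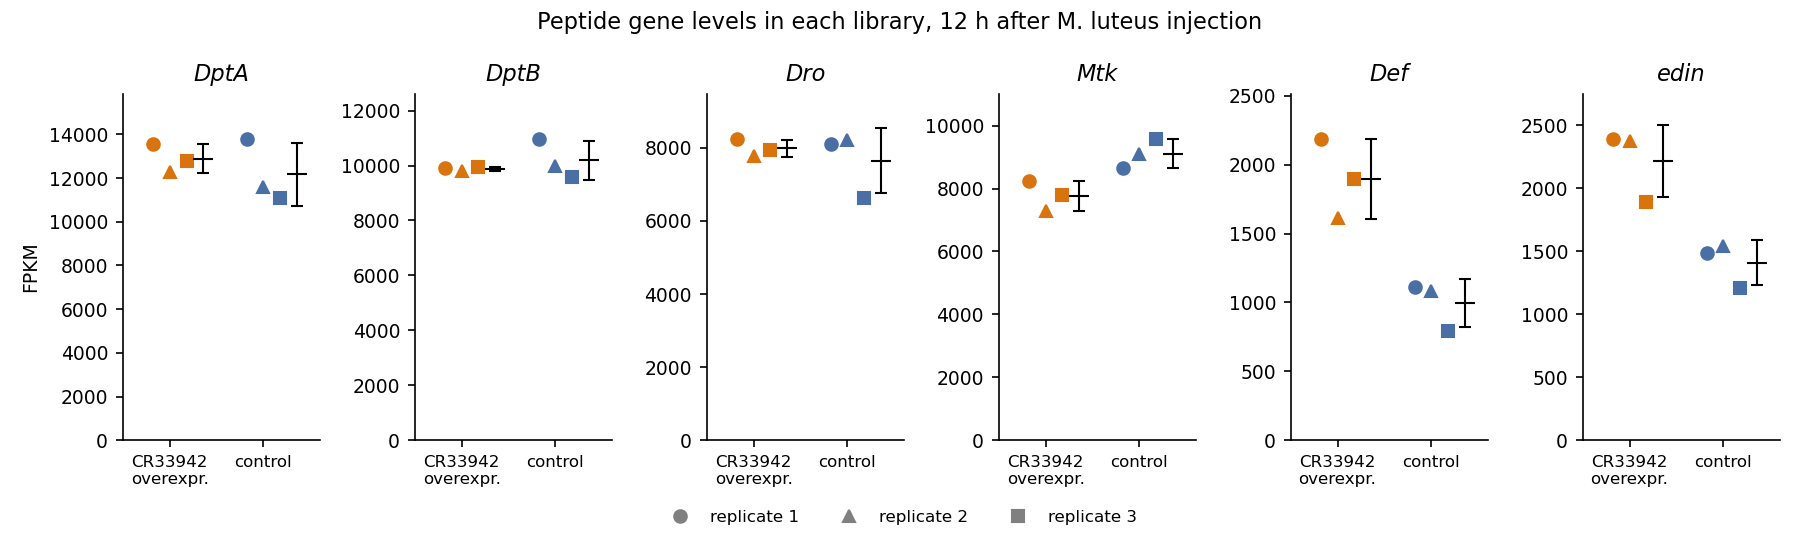
Level of each peptide gene in each library, in FPKM on axes that start at 0. Points are libraries with the replicate number as the shape, overexpressing libraries on the left of each panel; the bar is the mean with its SD (n = 3). Def and edin sit higher in all 3 overexpressing libraries than in any control library, Mtk sits lower, and the diptericins and Dro overlap.

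Def (FBgn0010385) lies on the minus strand of chromosome arm 2R from 10054178 to 10054576, has 1 exon of 399 nt and codes for 92 residues. It sits within an intron of magu, on the opposite strand. Its level was 2187, 1611 and 1893 FPKM in overexpressing replicates 1 to 3, against 1112, 1081 and 795 FPKM in control replicates 1 to 3. The lowest overexpressing library thus stood well above the highest control library. On average Def had 1897 ± 288 FPKM in overexpressing and 996 ± 174 FPKM in control libraries (SD, n = 3 each). Its log2 change was 0.93 ± 0.15 (SE; 95% interval 0.58 to 1.29; limma, adjusted p = 0.0261). Permuting the 6 values over libraries (exact, two-sided) gave p = 0.1, which is the smallest possible with 3 per group. Def had between 5559 and 17700 reads per library, so the error from counting alone was at most 1.34% of a value, against a coefficient of variation (SD over mean) of 15.2% in overexpressing and 17.5% in control libraries. The call was lost when a library was left out, with adjusted p of 0.0895 and 0.0906 on dropping overexpressing replicates 1 and 3, and of 0.0596, 0.0829 and 0.0592 on dropping control replicates 1, 2 and 3; it held without overexpressing replicate 2 (0.0137). With no filter on low genes the adjusted p of Def was 0.0560.

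The edin gene (FBgn0052185) is the only one of the 6 outside arm 2R. It lies on the plus strand of chromosome arm 3L from 17494880 to 17495300, within an intron of Oatp74D on the same strand, with 1 exon of 421 nt and 115 coded residues. It stood at 2391, 2375 and 1889 FPKM in overexpressing replicates 1 to 3, against 1483, 1539 and 1205 FPKM in control replicates 1 to 3. The groups did not overlap, and replicate 3 was the low library in either group. Mean levels were 2218 ± 286 FPKM in overexpressing and 1409 ± 179 FPKM in control libraries (SD, n = 3 each), a log2 change of 0.65 ± 0.12 (SE; 95% interval 0.37 to 0.94; limma, adjusted p = 0.0437). The exact two-sided permutation p was again 0.1. The call of edin was lost with adjusted p = 0.147 and 0.0689 without overexpressing replicates 1 and 2 and 0.104, 0.0938 and 0.117 without control replicates 1, 2 and 3, and it held without overexpressing replicate 3 (0.0403). It was also lost with no filter (0.0827) and without a trend in the variance (0.0712). The host gene Oatp74D, which encodes an organic anion transporter, stood at 7.11 ± 0.985 FPKM in overexpressing and 8.62 ± 0.259 FPKM in control libraries (SD, n = 3 each; limma, adjusted p = 0.259) and so was far less abundant than edin.

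**Figure D2:**
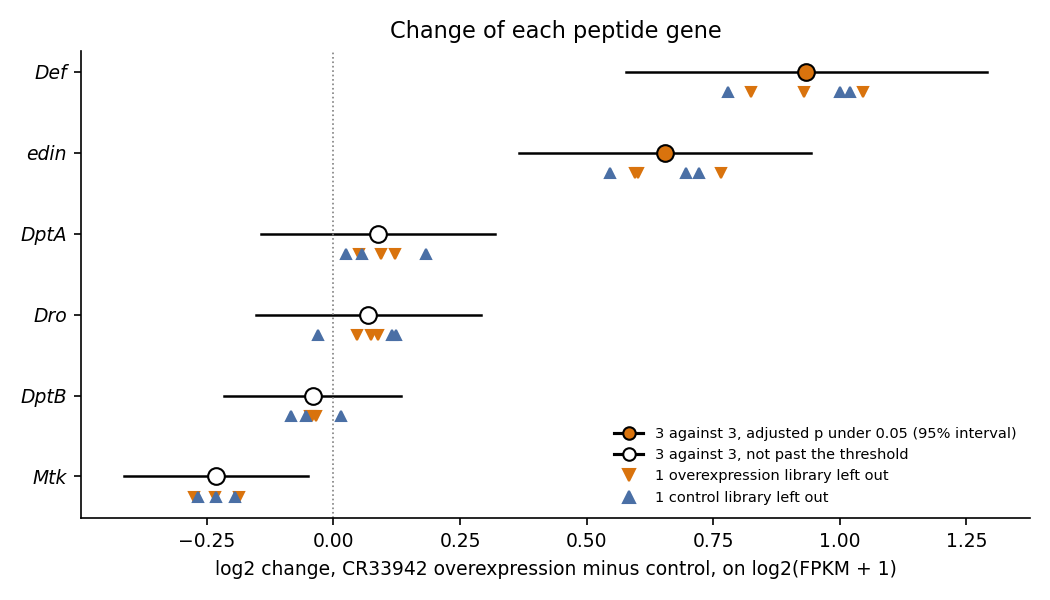
Log2 change of each gene (overexpressing minus control, log2(FPKM + 1) scale) with its 95% interval as a line; filled circles passed an adjusted p of 0.05. Triangles under each circle give the change with 1 library left out. The intervals of Def (0.58 to 1.29) and edin (0.37 to 0.94) lie above 0, that of Mtk (-0.41 to -0.05) lies below 0, and the other 3 span 0.

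Mtk (FBgn0014865) lies on the plus strand of 2R from 15408846 to 15409113 within an intron of Stacl, with 1 exon of 268 nt and 52 coded residues. It had 8235, 7272 and 7778 FPKM in overexpressing replicates 1 to 3, against 8657, 9096 and 9581 FPKM in control replicates 1 to 3. All 3 overexpressing libraries were under the lowest control library. The means were 7762 ± 482 FPKM in overexpressing and 9111 ± 462 FPKM in control libraries (SD, n = 3 each). Its log2 change was -0.23 ± 0.08 (SE; 95% interval -0.41 to -0.05), with an unadjusted p of 0.0186 that did not pass after adjustment (limma, adjusted p = 0.206). The exact permutation p of Mtk was 0.1. Across the alternatives tried its adjusted p lay between 0.0793, with voom on recovered reads, and 0.448, with no filter, and its change stayed below 0 in each. The host gene Stacl was at 16.2 ± 0.741 FPKM in overexpressing and 14.5 ± 1.28 FPKM in control libraries (SD, n = 3 each; limma, adjusted p = 0.378).

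The diptericin genes are neighbours on 2R, with 1131 nt between them and the same plus strand. DptA (FBgn0004240) runs from 18865765 to 18866260 with 1 exon of 496 nt, and DptB (FBgn0034407) from 18867391 to 18867895 with 2 exons that total 449 nt. They code for 106 and 120 residues. DptA had 13575, 12282 and 12789.8 FPKM in overexpressing replicates 1 to 3, against 13796, 11592 and 11097 FPKM in control replicates 1 to 3. The highest and the lowest of the 6 values were both control libraries. The log2 change of DptA was 0.09 ± 0.10 (SE; 95% interval -0.14 to 0.32; limma, adjusted p = 0.740). DptB had 9896, 9797 and 9952 FPKM in overexpressing replicates 1 to 3, against 10974, 9989.7 and 9586 FPKM in control replicates 1 to 3. Its overexpressing values lay within the range of its control values. The log2 change of DptB was -0.04 ± 0.08 (SE; 95% interval -0.22 to 0.13; limma, adjusted p = 0.856), and it was 0.014 without control replicate 1. As fold changes, these intervals run from 0.905 to 1.25 for DptA and from 0.861 to 1.10 for DptB, so a change as large as that of Def or edin lay outside both. The last 48 nt of exon of DptB overlap CG43109 on the opposite strand, which stood at 3.86 ± 0.930 FPKM in overexpressing and 3.01 ± 1.25 FPKM in control libraries (SD, n = 3 each).

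Dro (FBgn0010388) lies on the plus strand of 2R from 14745961 to 14746714 and codes for 64 residues. It had 8244, 7780.5 and 7924 FPKM in overexpressing replicates 1 to 3, against 8106, 8197 and 6626 FPKM in control replicates 1 to 3. Control replicate 3 was the low library, and the other 5 lay close together. The log2 change was 0.07 ± 0.10 (SE; 95% interval -0.15 to 0.29; limma, adjusted p = 0.795), and without control replicate 3 it was -0.031. As a fold change the interval ran from 0.899 to 1.22. Next to Dro on the same strand lie AttA, which starts 648 nt away, and AttB, both attacin genes. AttB stood at 2998 ± 455 FPKM in overexpressing and 2016 ± 313 FPKM in control libraries and AttA at 667 ± 254 and 686 ± 36.4 FPKM in the same order (SD, n = 3 each; limma, adjusted p = 0.111 and 0.887). The 2 attacins are similar in sequence and can share reads.

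**Figure D3:**
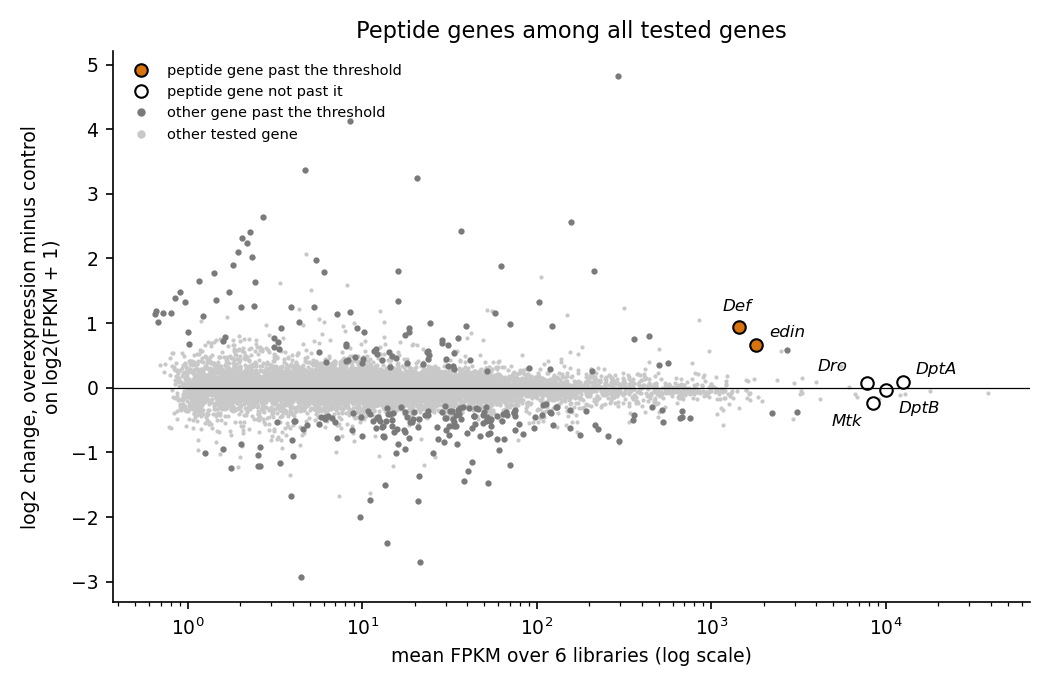
Mean FPKM over the 6 libraries (log scale) against log2 change (overexpressing minus control) for the 12326 tested genes, with the peptide genes circled and filled where the adjusted p was under 0.05. All 6 lie at the abundant end of the plot, and Def and edin are the ones set apart from 0.

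These genes were among the most abundant transcripts of the flies. Among all 17558 genes, DptA ranked between 3 and 5 by FPKM in the 6 libraries, DptB 6 or 7, Dro between 7 and 11, and Mtk between 7 and 10. Def ranked 26, 36 and 26 in overexpressing replicates 1 to 3, against 65, 73 and 114 in control replicates 1 to 3, and edin 25, 26 and 28 against 42, 38 and 54. Together the 6 genes made up 6.16% ± 0.254 of all FPKM in overexpressing and 5.90% ± 0.314 in control libraries (SD, n = 3 each). Their sum was 42624 ± 1740 FPKM in overexpressing and 41504 ± 2618 FPKM in control libraries, a difference smaller than the SD of the control libraries. Within that sum Def took 4.44% ± 0.499 in overexpressing and 2.39% ± 0.301 in control libraries, edin 5.21% ± 0.667 and 3.39% ± 0.306 in the same order, and Mtk 18.2% ± 0.447 and 22.1% ± 2.51 (SD, n = 3 each).

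By mean level per length, overexpressing libraries had DptA at 12882.5 ± 652 FPKM, DptB at 9882 ± 78.8, Dro at 7983 ± 237, then Mtk, edin and Def at the means given above. Dro and Mtk overlapped there, as did edin and Def. In control libraries DptA stood at 12162 ± 1437 FPKM, DptB at 10183 ± 714 and Dro at 7643 ± 882 (SD, n = 3 each), with Mtk above Dro, edin below it and Def last, and no neighbours in that order overlapped. The place of Dro depends on the length used. It is annotated with a transcript of 754 nt, which is the length behind the deposited values, and one of 355 nt. If all its reads came from the short one, its level would be 16955 ± 504 FPKM in overexpressing and 16233 ± 1872 FPKM in control libraries (SD, n = 3 each), above DptA. Its change between groups would be the same.

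Ratios taken within a library do not depend on how libraries were scaled. Of 4 such ratios, Def over Mtk was 0.266, 0.222 and 0.243 in overexpressing replicates 1 to 3, against 0.128, 0.119 and 0.0830 in control replicates 1 to 3. Every overexpressing library had a higher share of defensin to metchnikowin transcript than any control library, and the ratio was 2.24 times as high on the log-scale mean. The ratio edin over DptB was 0.242, 0.242 and 0.190 in overexpressing replicates 1 to 3, against 0.135, 0.154 and 0.126 in control replicates 1 to 3, or 1.62 times as high, again with no overlap. DptA over DptB was 1.30 ± 0.0612 in overexpressing and 1.19 ± 0.0567 in control libraries, and Dro over DptA 0.620 ± 0.0131 in overexpressing and 0.631 ± 0.0664 in control libraries (SD, n = 3 each), and the groups of both overlapped. Exact two-sided permutation tests gave p = 0.1 for Def over Mtk and for edin over DptB, the smallest possible, 0.2 for DptA over DptB and 1 for Dro over DptA (adjusted over the 4 ratios, 0.2, 0.2, 0.267 and 1). Def over Mtk was chosen with earlier results of these data known. Over all 15 pairs of the 6 genes, as a description, groups did not overlap for 10, among them all 8 that set Def or edin against DptA, DptB, Dro or Mtk, with log2 differences between 0.57 and 1.17. These 8 pairs reuse Def and edin, the genes called higher in the same libraries, so they restate those calls and add no separate support. The share among gene pairs in general was not computed.

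**Figure D4:**
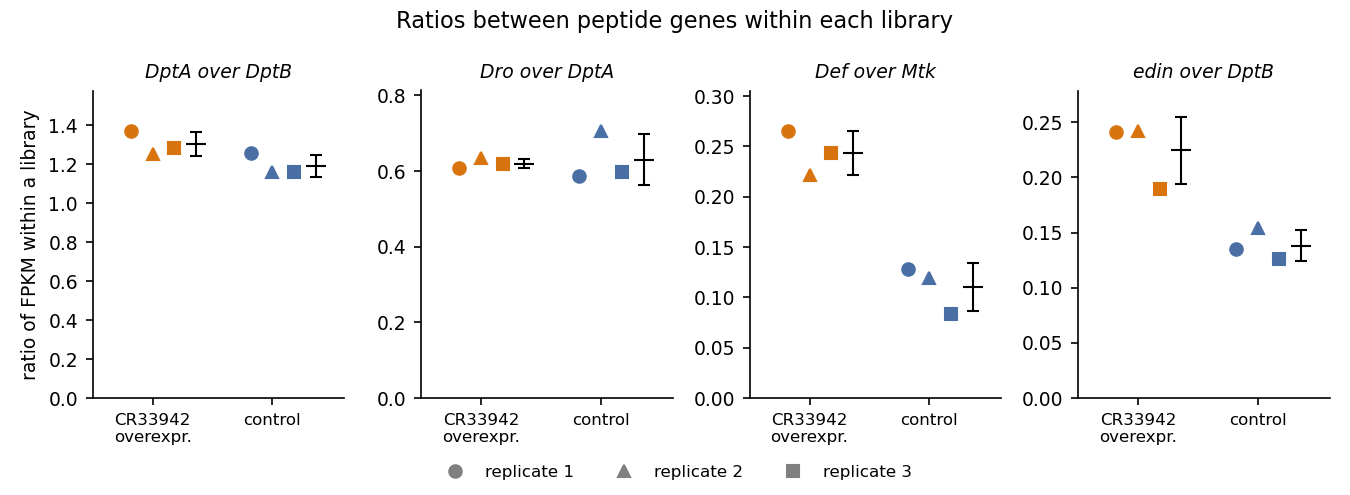
Ratio of the FPKM of 2 peptide genes within each library, on axes that start at 0. Points are libraries, overexpressing ones left of the controls, and the bar is the mean with its SD (n = 3). Def over Mtk and edin over DptB do not overlap between the groups, and the other 2 ratios do.

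Within the groups, the genes did not vary as 1 block. As a description over the 6 libraries, the deviations from the group means correlated at Pearson r = 0.93 for DptA with DptB, 0.89 for Dro with Def, 0.76 for DptA with Def and 0.72 for Dro with edin. It was lower for edin with DptA (0.39), DptB (0.38) and Def (0.52). Mtk had the lowest values, with r between -0.55 and 0.05 to the other 5. The genes within a library share its depth and scaling, and 3 libraries per group give few degrees of freedom. In control replicate 3 Def, edin and Dro deviated from the control mean by -0.31, -0.22 and -0.20 log2 units, and Mtk by 0.07.

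Likeness to other genes was measured by Pearson r of log2(FPKM + 1) over all 6 libraries, among 6734 other tested genes with a mean of at least 10 FPKM. The r includes the difference between groups. Most like Def were Tsf3, a transferrin gene (r = 0.995), PGRP-SD, which encodes a secreted peptidoglycan recognition protein (0.994), and CG4199 (0.988). PGRP-SD stood at 639 ± 43.8 FPKM in overexpressing and 490.1 ± 25.1 FPKM in control libraries and Tsf3 at 17.1 ± 1.67 and 11.3 ± 1.19 FPKM in the same order (SD, n = 3 each). Most like edin were spidey, a hydroxysteroid dehydrogenase gene (0.994), capu (0.990) and CG3610 (0.983). Most like Dro were the tropomyosin genes Tm2 (0.996) and Tm1 (0.988), then Snr1 (0.986). Most like Mtk were CG31496 (0.994), Hph (0.991) and CG9568 (0.990), and most like the diptericins were UBL3, lic and Wdr37 for DptA (0.966, 0.955 and 0.949) and ave, CG12268 and CG17107 for DptB (0.984, 0.977 and 0.974). None of the 18 places went to a cecropin, attacin or drosomycin-like gene. Such genes are few among the 6734, so their absence from 18 places does not measure how unlike they are.

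The chromosomal neighbours of the 6 genes did not pass the test. Of 27 other genes of the table within 10 kb of any of them 25 were tested, and limma called 0. The unadjusted p was under 0.05 for 3, and the lowest adjusted p was 0.111, that of AttB. Their log2 changes ran from -0.29, for CG43071 beside DptA, to 0.57 for AttB, with a median of -0.01. Counts at an unadjusted p under 0.05, here and below, have no share over all tested genes beside them and were not read as results. Near Def, magu, which encodes a secreted calcium-binding protein, stood at 22.6 ± 1.37 FPKM in overexpressing and 23.2 ± 1.24 FPKM in control libraries, and COX7C, a cytochrome c oxidase subunit gene, at 399 ± 24.7 and 396 ± 26.0 FPKM in the same order (SD, n = 3 each). The others had smaller sizes of change than AttB. They were Jheh2, Jheh3, CG43069, CG43070 and CG43109 near the diptericins; CG10151, Rpn6, AttA, ave, ND-B15 and jef near Dro; lncRNA:CR45020 and Stacl near Mtk; PIG-N, sel, lncRNA:CR44298, oys, lncRNA:CR44295 and COX7CL near Def; and CG6333 and Oatp74D near edin. CG43428 and asRNA:CR44297 were below the filter.

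Among the other antimicrobial peptide genes, 12 of 13 tested lay above 0, with a median log2 change of 0.57. Limma called 2 higher and 0 lower, voom called 6 higher and 0 lower, and 7 had an unadjusted p under 0.05. Drs, the drosomycin gene, was not among the 13, because no row carried its symbol. The very abundant FBgn0010381, without a symbol in the annotation, averaged 17818 FPKM with a log2 change of -0.05 (limma, adjusted p = 0.825). It was not assigned to a gene here. CecA2, a cecropin gene, rose to 330.0 ± 62.7 FPKM in overexpressing libraries, against 93.3 ± 11.2 FPKM in control libraries (SD, n = 3 each; limma, adjusted p = 0.00173). AttC rose to 3237 ± 159 FPKM in overexpressing libraries, against 2162 ± 260.2 FPKM in control libraries (SD, n = 3 each; limma, adjusted p = 0.0249). With 1 library left out, between 1 and 4 of the 13 were called higher and 0 lower; CecA2 passed in all 6 such fits, and AttC failed without overexpressing replicate 1 or 3 (adjusted p = 0.107 and 0.0835) and without control replicate 2 or 3 (0.0931 and 0.0594). The log2 change of Def lay between those of AttC (0.59) and CecA2 (1.80), and DptA, DptB, Dro and Mtk lay under the median of these 13 genes.

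The genes listed under the Imd pathway did not pass. Limma called none of its 18 components (0 higher, 0 lower); 6 had an unadjusted p under 0.05, voom called 1 higher and 0 lower, and the median log2 change was 0.13. With 1 library left out, between 0 and 2 were called higher and 0 lower: Rel (adjusted p = 0.0455) and Diap2, a ubiquitin ligase gene (0.0268), both without overexpressing replicate 2. Rel, which encodes Relish, stood at 157 ± 27.1 FPKM in overexpressing and 118 ± 16.0 FPKM in control libraries (log2 change 0.40 ± 0.14 SE; limma, adjusted p = 0.234), with overlapping groups. PGRP-LC, the membrane receptor of the pathway, stood at 49.2 ± 4.04 and 44.0 ± 5.06 FPKM, imd, its adaptor, at 24.5 ± 3.14 and 22.4 ± 1.03 FPKM, and eff, a ubiquitin-conjugating enzyme gene, at 156 ± 11.8 and 158 ± 3.80 FPKM, overexpressing first in each (SD, n = 3; limma, adjusted p = 0.484, 0.636 and 0.818). The 12 tested negative regulators gave 0 limma calls, 3 unadjusted p-values under 0.05, 1 higher and 0 lower calls by voom and a median of 0.06. With 1 library left out, between 0 and 1 of them was called higher and 0 lower, PGRP-SC2 without control replicate 1 (adjusted p = 0.0193). The most abundant of them were PGRP-SB1, at 1261 ± 101 FPKM in overexpressing and 1175 ± 106 FPKM in control libraries, and PGRP-SC2, which encodes a peptidoglycan-cleaving amidase, at 498 ± 6.09 and 381 ± 59.0 FPKM in the same order (SD, n = 3 each; limma, adjusted p = 0.650 and 0.109).

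Of 21 genes listed under Toll limma called PGRP-SD higher (log2 change 0.38 ± 0.07 SE, adjusted p = 0.0381) and 0 lower. PGRP-SD was counted under Toll alone, and the listing does not decide its pathway. In this list 7 genes had an unadjusted p under 0.05, voom called 1 higher and 3 lower, and the median was -0.03. Dif stood at 21.0 ± 0.267 FPKM in overexpressing and 22.5 ± 0.953 FPKM in control libraries and dl, which encodes Dorsal, at 13.0 ± 1.11 and 15.8 ± 0.494 FPKM in the same order (SD, n = 3 each; limma, adjusted p = 0.455 and 0.135). For Dif and dl the groups did not overlap, with overexpressing libraries lower, as was so for 11.7% of all tested genes. The interval of the log2 change spanned 0 for Dif (-0.23 to 0.03) and lay below 0 for dl (-0.44 to -0.09). Groups of other Toll genes also did not overlap. GNBP1, GNBP3 and SPE were lower (limma, adjusted p = 0.476, 0.0730 and 0.0507), and PGRP-SA, PGRP-SD, spz and Pli were higher. Over all tested genes, 9.06% had groups that did not overlap and were higher. With 1 library left out, between 0 and 3 Toll genes were called higher and between 0 and 1 lower; PGRP-SD passed without overexpressing replicate 2 (adjusted p = 0.0145) and in none of the other 5 fits (up to 0.127).

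**Figure D5:**
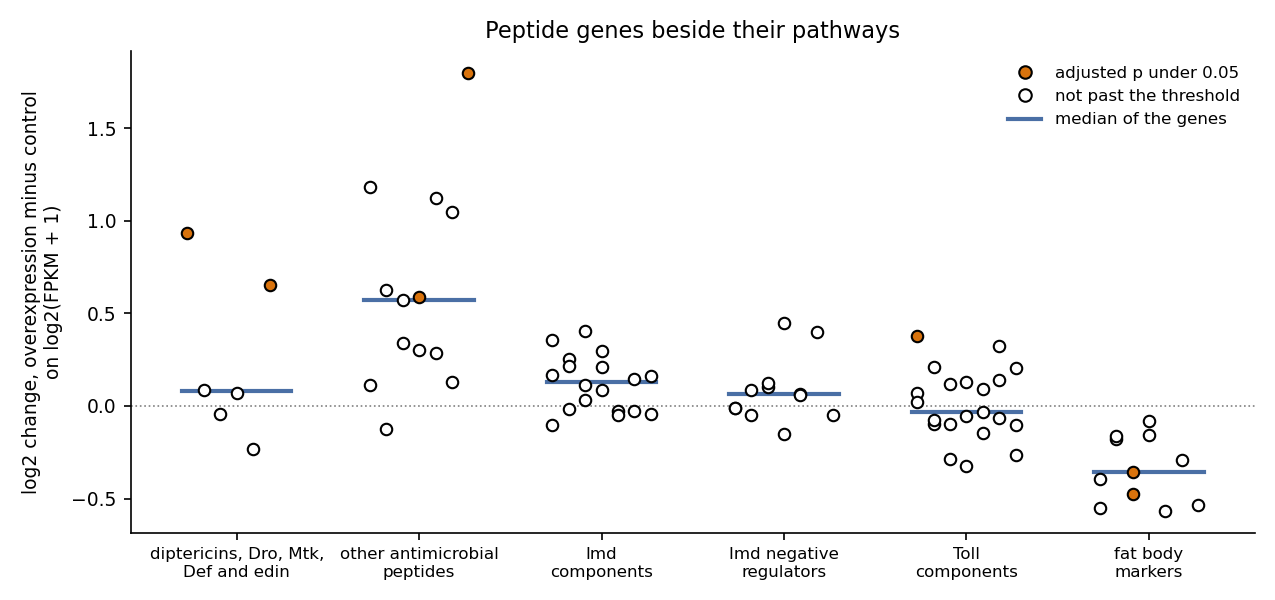
Log2 change (overexpressing minus control) of each tested gene in 6 groups of genes, filled where the adjusted p was under 0.05, with the median as a bar. The medians are 0.08 for the 6 peptide genes, 0.57 for the other antimicrobial peptides, 0.13 and 0.06 for Imd components and negative regulators, -0.03 for Toll components and -0.36 for fat body markers.

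Of 11 tested markers of the fat body, the main source of these peptides, all had a log2 change below 0, with a median of -0.36. Limma called 0 higher and 2 lower, voom 0 higher and 3 lower, and with 1 library left out between 1 and 4 were called lower, most without overexpressing replicate 2, and 0 higher. One was fat-spondin, at 24.8 ± 0.730 FPKM in overexpressing and 34.8 ± 1.06 FPKM in control libraries (SD, n = 3 each; limma, adjusted p = 0.00668), a call kept in all 6 fits with a library left out. The other was Desat1, a fatty acid desaturase gene, at 599 ± 4.74 FPKM in overexpressing and 769 ± 25.8 FPKM in control libraries (SD, n = 3 each; limma, adjusted p = 0.0172). Desat1 passed without overexpressing replicate 2 or control replicate 3 and in none of the other 4 fits (adjusted p up to 0.0800). The summed level of the 12 markers in the table ran from 8659 to 10008 FPKM in overexpressing and from 9948 to 11131 FPKM in control libraries, and most of it was Cyp4g1, a gene also known from oenocytes. Of 10 tested haemocyte markers limma called 0 higher and 1 lower, NimC1, whose call survived the dropping of overexpressing replicate 2 but of no other library (adjusted p up to 0.0922). By voom there was 1 higher call, lz, and 1 lower call, NimC1, and with 1 library left out there were 0 higher and between 0 and 1 lower calls. The list had 4 unadjusted p-values under 0.05, a median of -0.07 and sums from 109 to 128 FPKM in overexpressing and from 127 to 135 FPKM in control libraries. In RNA from many tissues, fewer cells of a type and less RNA per cell cannot be told apart. The part of these marker levels in the values of Def and edin was not tested. Of 9 gut, 5 accessory gland and 6 testis markers tested limma called 0, with 1, 1 and 0 at an unadjusted p under 0.05 and 1, 0 and 0 called by voom. Of the female markers Yp3, a yolk protein gene, was the 1 tested and was lower, at 9.04 FPKM in overexpressing and 32.4 FPKM in control libraries on average.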

How the data were processed

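The values are FPKM, as deposited by the authors, 1 per gene and library. Per the labels' protocols, poly(A) RNA was sequenced as paired ends, HISAT2 2.0.5 aligned the reads, featureCounts 1.5.0-p3 assigned them to genes, and the authors' differential expression test was DESeq2. The submitters' processing notes name dm6 as the build. The step from counts to FPKM, and whether counting used strand, are not given in the sources used here. Symbols, coordinates and exon lengths came from an Ensembl annotation on dm6 coordinates (17252 of 17558 identifiers had a symbol). Drs, FASN1, PPO1 and nos were not found by symbol. FPKM times exon length gave whole reads (tolerance 0.01 of a read) for 15276 of 15918 genes above 0, or 96.0%, and for all 6 peptide genes; for 642 genes a length was solved (tolerance 0.001). Genes that reached 1 FPKM in 3 or more libraries entered a limma fit (version 3.58.1, R 4.3.3; lmFit and eBayes with a trend) on log2(FPKM + 1), a scale that understates the change of low genes. The code of the fit was run on simulated counts with the same spread setting for all genes and no outlying library. That run checked the code and does not bear on the calls made here. Alternatives were other pseudocounts, filters, scalings, voom on recovered reads, a replicate block and each library left out. Sequences of these genes were not used here, so the planned protein and promoter comparison was not made. Named genes were the 6 peptide genes, genes within 10 kb, the 3 genes most like each by r, known regulators, and of each pathway list up to 4 called genes or else the 2 most abundant. Genes and lists were chosen with earlier results of these data known. The marker, neighbour and pathway genes named beyond this rule were chosen after their values were seen.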

Additional observations from a re-analysis of the deposited data

How the results depend on the processing

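Of 15 alternatives, Def kept its call in 9 and edin in 8, always with a positive change; DptA and Mtk kept their direction and stayed short of the threshold in all 15, and DptB and Dro in 14 each. With no filter on low genes, Def (log2 change 0.93, adjusted p = 0.0560) and edin (0.65, adjusted p = 0.0827) no longer passed, and without a trend in the variance edin (0.65) did not (adjusted p = 0.0712). With 1 library left out, the log2 change ranged from 0.78 to 1.05 for Def, 0.55 to 0.77 for edin, -0.28 to -0.19 for Mtk, 0.03 to 0.18 for DptA, -0.084 to 0.014 for DptB and -0.031 to 0.12 for Dro. The within-library log2 ratio changed by 0.97 to 1.29 for Def over Mtk, 0.63 to 0.81 for edin over DptB, 0.09 to 0.17 for DptA over DptB and -0.068 to 0.066 for Dro over DptA. The cause was not tested. The count of called genes was 274 (104 higher, 170 lower), 460 with voom on recovered reads (305 lower) and between 72 and 459 with 1 library left out (32 to 203 higher, 40 to 256 lower), highest without overexpressing replicate 2. Same-numbered libraries did not deviate together (r = -0.05, -0.18 and 0.03 for numbers 1 to 3), so the numbers were not treated as pairs. With the replicate number as a block, 110 genes were called (44 higher, 66 lower), and Def (adjusted p = 0.0490) and edin (0.0226) were among them. CecA2 (0.00321), fat-spondin (0.0450) and Yp3 (0.00206) also kept their calls under the block; AttC (0.0537), PGRP-SD (0.107), NimC1 (0.0762) and Desat1 (0.0821) lost theirs. At the lowest read number of each gene the counting error was between 0.322% and 1.34% of its level. That was below the spread between replicates in either group, by the least for DptB in overexpressing libraries (0.364% against 0.798%).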
